A study of Mus musculus with 16 samples.

Results

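The integrated stress response was examined through 10 genes, Atf4, Ddit3, Asns, Trib3, Chac1, Sesn2, Psat1, Phgdh, Hspa5 and Atf5, which were chosen by name as members of the pathway. They were represented by 13 of the 15330 mRNA references in RNA bisulfite sequencing libraries of mouse embryonic stem cells. The cells had the J1 background and were Dnmt2-/- or wild type, and both were cultured in serum and a leukaemia inhibitory factor product on fibroblast feeders that were later removed by letting them settle on dishes. The 6 libraries used here, 3 Dnmt2-/- and 3 wild type, held the long RNA fraction after rRNA depletion, and no stressor is named in the labels of either genotype. The labels do not say whether a genotype was 1 clone or whether the replicates were separate cultures, and a p-value here reflects only how much these libraries vary, possibly for technical reasons.

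The integrated stress response slows general translation when a kinase phosphorylates the initiation factor eIF2, while the transcription factor ATF4 is translated more and switches on genes for amino acid synthesis, transport and cell fate. HSPA5, the chaperone BiP of the endoplasmic reticulum, is best known as a target of the parallel unfolded protein response. Dnmt2, gene symbol Trdmt1, methylates a cytosine of some tRNAs, and uncharged tRNAs activate the eIF2 kinase GCN2, which makes these transcripts a readout to compare between the genotypes. Bisulfite turns unmethylated cytosines into uracil, so each library gives per cytosine a read coverage and a share of reads that stayed unconverted.

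Coverage of a transcript was the mean number of reads per listed cytosine, scaled between libraries, so it is a level per cytosine and not a read count. The summed coverage was 103510103, 93517724 and 109992584 in the Dnmt2-/- libraries and 79955585, 143488903 and 37786723 in the wild type libraries, which makes wild type replicate 3 the shallowest. The files list no cytosine under 3 reads, so an unlisted cytosine had 0 to 2 reads and was taken as 0. The Trdmt1 transcript, checked first because it is the gene named in the genotype, had a scaled coverage of 1.30, 0.458 and 0.978 in Dnmt2-/- and 4.32, 3.47 and 2.93 in wild type. It was lower in every Dnmt2-/- library than in any wild type library (log2 difference -1.56, adjusted p = 0.370, limma with Benjamini-Hochberg adjustment over all transcripts).

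None of the stress response transcripts differed between the genotypes after adjustment, and 10 of the 11 references that could be tested had overlapping groups. In the same fit 0 of 10949 transcripts (0%) were called in either direction. At an unadjusted p under 0.05 stood 1 of the 11 member references, against 778 of all transcripts (7.11%). The exception was the Hspa5 reference NM_022310.3, which was higher in every Dnmt2-/- library than in any wild type library; of all transcripts, 6.13% were separated in that direction, 5.98% in the other and 12.1% in either. The log2 difference was positive for 4 and negative for 7 of the 11 references, with a median of -0.15, against a median of 0.03 over all transcripts tested. The other 2 of the 13 references, Ddit3 NM_001290183.1 and Psat1 NM_001205339.1, had a mean scaled coverage under 1 and were not tested. In such bulk RNA, fewer cells making a transcript and less of it per cell cannot be told apart.

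Promoter windows of 4 members are shown because they hold the letters of 2 elements through which the stress responses are known to act. Each runs from 250 bases before to 50 bases after the RefSeq start of the gene in GRCm38.p6, on the strand of the gene, with the matching letters in capitals. The C/EBP-ATF response element was searched as TGATGNAA on both strands, and the endoplasmic reticulum stress element by its usual consensus, also on both strands; the 2 patterns do not overlap in these windows. The Hspa5 window is chr2:34771840-34772139 on the plus strand, that of Chac1 chr2:119350992-119351291 on the plus strand, that of Trib3 chr2:152344011-152344310 on the minus strand, and that of Asns chr6:7693160-7693459 on the minus strand.
Hspa5: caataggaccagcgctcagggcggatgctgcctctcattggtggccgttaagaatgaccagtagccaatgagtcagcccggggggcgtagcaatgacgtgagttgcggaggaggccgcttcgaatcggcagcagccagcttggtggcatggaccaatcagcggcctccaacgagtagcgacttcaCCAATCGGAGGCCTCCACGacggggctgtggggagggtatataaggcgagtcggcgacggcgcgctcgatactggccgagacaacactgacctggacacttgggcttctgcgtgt
Chac1: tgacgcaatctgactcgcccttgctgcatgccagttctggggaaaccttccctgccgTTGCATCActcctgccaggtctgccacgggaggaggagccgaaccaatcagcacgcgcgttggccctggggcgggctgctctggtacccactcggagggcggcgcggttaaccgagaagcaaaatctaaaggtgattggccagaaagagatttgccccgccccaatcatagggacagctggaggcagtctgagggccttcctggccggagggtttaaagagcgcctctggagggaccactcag
Trib3: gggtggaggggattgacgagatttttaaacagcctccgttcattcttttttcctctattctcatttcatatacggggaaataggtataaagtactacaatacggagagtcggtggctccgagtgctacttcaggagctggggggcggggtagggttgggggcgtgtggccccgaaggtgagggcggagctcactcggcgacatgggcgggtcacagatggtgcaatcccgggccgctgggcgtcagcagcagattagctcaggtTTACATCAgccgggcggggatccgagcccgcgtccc
Asns: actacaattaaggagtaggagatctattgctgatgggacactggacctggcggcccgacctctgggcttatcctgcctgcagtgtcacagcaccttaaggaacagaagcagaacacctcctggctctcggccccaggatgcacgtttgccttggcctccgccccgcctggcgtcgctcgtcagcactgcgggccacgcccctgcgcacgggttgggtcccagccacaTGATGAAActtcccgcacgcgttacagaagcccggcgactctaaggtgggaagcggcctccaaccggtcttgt
The response element of the ATF family was found in 3 of the 12 windows of the 10 genes, against 1304 of 32851 windows of all genes (3.97%). In Asns it began at position -23 from the start on the gene's own strand, in Chac1 at -193 from the start on the opposite strand, and in Trib3 15 bases after the start on the opposite strand. The endoplasmic reticulum stress element was found in Hspa5 alone of the 10, beginning at -65 from the start, which is 1 of the 12 windows, against 39 windows of all genes (0.119%). These matches are letters in a window and not measured binding sites. The listed cytosines in the first 50 positions lay on a C of the window for 13 of 13 positions in both Hspa5 references, 4 of 4 in Chac1 and 16 of 16 in Trib3. In Asns this held for 8 of 21, so positions in the deposited Asns reference do not map onto this window.

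Hspa5, on chromosome 2, encodes the chaperone that binds unfolded proteins in the endoplasmic reticulum, and its reference NM_001163434.1 had the highest coverage of the members. It had 113, 117 and 200 reads per cytosine in Dnmt2-/- libraries and 149, 92.9 and 170 in wild type libraries. The highest value of each genotype came from its replicate 3, and the groups overlapped. The means were 143 ± 49.4 in Dnmt2-/- and 137 ± 39.7 in wild type (SD, n = 3 each), a log2 difference of 0.06 with a 95% interval of -0.61 to 0.73 (adjusted p = 0.995, limma with Benjamini-Hochberg adjustment).

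The second Hspa5 reference, NM_022310.3, had 72.9, 72.7 and 68.8 reads per cytosine in Dnmt2-/- and 62.6, 48.4 and 61.6 in wild type. All 3 Dnmt2-/- libraries lay above all 3 wild type libraries. The means were 71.5 ± 2.30 in Dnmt2-/- and 57.5 ± 7.93 in wild type (SD, n = 3 each). The log2 difference was 0.32 with a 95% interval of 0.01 to 0.63, and its adjusted p of 0.693 by limma with Benjamini-Hochberg adjustment did not pass 0.05. The references list 51 and 73 cytosines within the first 184 and 215 nt of their transcripts, and 28 positions carry the same number in both. Up to position 46 their listed positions were identical, 13 in each, so reads of 1 Hspa5 transcript could be split between the references, and the separation of one without the other cannot be read as a change of Hspa5 as a whole.

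Of the enzymes of amino acid synthesis, Asns was the best covered. Asns, on chromosome 6, encodes asparagine synthetase, and its reference NM_012055.3 had 468 listed cytosines. Its coverage was 118, 117 and 99.2 in Dnmt2-/- and 97.2, 82.6 and 110 in wild type. The 2 highest values were Dnmt2-/- and the 2 lowest wild type, but replicate 3 was the lowest of the Dnmt2-/- libraries and the highest of the wild type libraries, so the groups overlapped. The means of 111 ± 10.6 in Dnmt2-/- and 96.6 ± 13.7 in wild type (SD, n = 3 each) gave a log2 difference of 0.21 with a 95% interval of -0.13 to 0.55 (adjusted p = 0.922, limma with Benjamini-Hochberg adjustment).

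Phgdh and Psat1 encode consecutive enzymes of serine synthesis, 3-phosphoglycerate dehydrogenase and phosphoserine aminotransferase, and their mean levels lay next to each other. Phgdh, on chromosome 3, had 50.2, 49.4 and 51.3 reads per cytosine in Dnmt2-/- and 58.2, 46.9 and 62.5 in wild type. The Dnmt2-/- values lay inside the wider wild type range, with means of 50.3 ± 0.935 in Dnmt2-/- and 55.9 ± 8.06 in wild type (SD, n = 3 each). Psat1 NM_177420.2, on chromosome 19, had 56.8, 57.9 and 49.1 in Dnmt2-/- and 55.8, 51.0 and 51.1 in wild type. Here the Dnmt2-/- libraries spanned the wild type range, and the log2 difference of 0.05 had a 95% interval of -0.23 to 0.32. For Phgdh it was -0.14 with an interval of -0.45 to 0.17. The intervals of both genes include 0 and leave out a change of 1 on the log2 scale in either direction. The second Psat1 reference had listed cytosines in 3 of 6 libraries, at 1.54, 0 and 1.10 reads in Dnmt2-/- and 0, 1.45 and 0 in wild type.

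The transcription factors of the response were covered less. Atf4, on chromosome 15, encodes the central activator, whose amount is set largely by translation, which these libraries do not measure. Its coverage was 15.0, 11.3 and 11.6 in Dnmt2-/- and 14.9, 10.4 and 18.3 in wild type. The Dnmt2-/- values lay inside the wild type range, and wild type replicate 3 stood highest. The means were 12.6 ± 2.05 in Dnmt2-/- and 14.5 ± 3.97 in wild type (SD, n = 3 each), and the log2 difference of -0.17 had a 95% interval of -0.68 to 0.34 (adjusted p = 0.980, limma with Benjamini-Hochberg adjustment). Without wild type replicate 3 the log2 difference was 0.00046.

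Ddit3 encodes CHOP, a factor tied to cell death under lasting stress, and lies on chromosome 10. Its reference NM_007837.4 had 2.23, 3.45 and 0.536 reads per cytosine in Dnmt2-/- and 1.80, 2.66 and 3.999 in wild type. The lowest and the highest value of all came from the replicate 3 libraries of the 2 genotypes. The log2 difference was -0.52 with a 95% interval of -1.73 to 0.69, and without Dnmt2-/- replicate 3 it was 0.03. The other Ddit3 reference had listed cytosines in 2 libraries, both Dnmt2-/-, at 1.44 and 1.75 reads, and was unlisted in the third Dnmt2-/- library and in all wild type libraries.

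Atf5 encodes a relative of ATF4 that is likewise controlled in translation, and lies on chromosome 7. It was the least covered member, with 1.08, 0.890 and 2.42 in Dnmt2-/- and 0.178, 1.74 and 5.79 in wild type over 19 listed cytosines. Wild type held both its lowest and its highest value. Its log2 difference of -0.19 had a 95% interval of -2.01 to 1.63, and without wild type replicate 3 it turned to 0.64, so no direction can be given for Atf5.

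The remaining members are targets that feed back on the response or act in redox balance. Sesn2, on chromosome 4, encodes sestrin 2, a leucine sensor upstream of mTORC1, and had 17.8, 15.1 and 19.8 in Dnmt2-/- and 15.5, 23.6 and 21.1 in wild type. Trib3, on chromosome 2, encodes a pseudokinase that inhibits ATF4 and CHOP activity, and had 9.59, 7.87 and 7.21 in Dnmt2-/- and 10.7, 9.51 and 7.46 in wild type. The groups overlapped for both genes. The log2 difference was -0.17 for Sesn2 with a 95% interval of -0.60 to 0.26, and -0.15 for Trib3 with an interval of -0.57 to 0.27.

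Chac1, on chromosome 2, encodes a glutathione-degrading enzyme. It had 3.32, 3.29 and 0.831 reads per cytosine in Dnmt2-/- and 4.62, 4.56 and 1.04 in wild type. Within each genotype replicates 1 and 2 were close together and replicate 3 was the lowest, so the spread inside a genotype exceeded the distance between the genotype means of 2.48 ± 1.43 in Dnmt2-/- and 3.41 ± 2.05 in wild type (SD, n = 3 each). The log2 difference was -0.35 with a 95% interval of -1.72 to 1.02 (adjusted p = 0.987, limma with Benjamini-Hochberg adjustment), and leaving out 1 library moved it from -0.96 without wild type replicate 3 to 0.14 without Dnmt2-/- replicate 3. Without both replicate 3 libraries it was -0.44, and on the cytosines listed in all 6 libraries it was -0.996 (SE 0.279, adjusted p = 0.319, limma with Benjamini-Hochberg adjustment). The size of the Chac1 difference therefore depends on the libraries and cytosines used, and it passed in none of these settings.

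**Figure D1:**
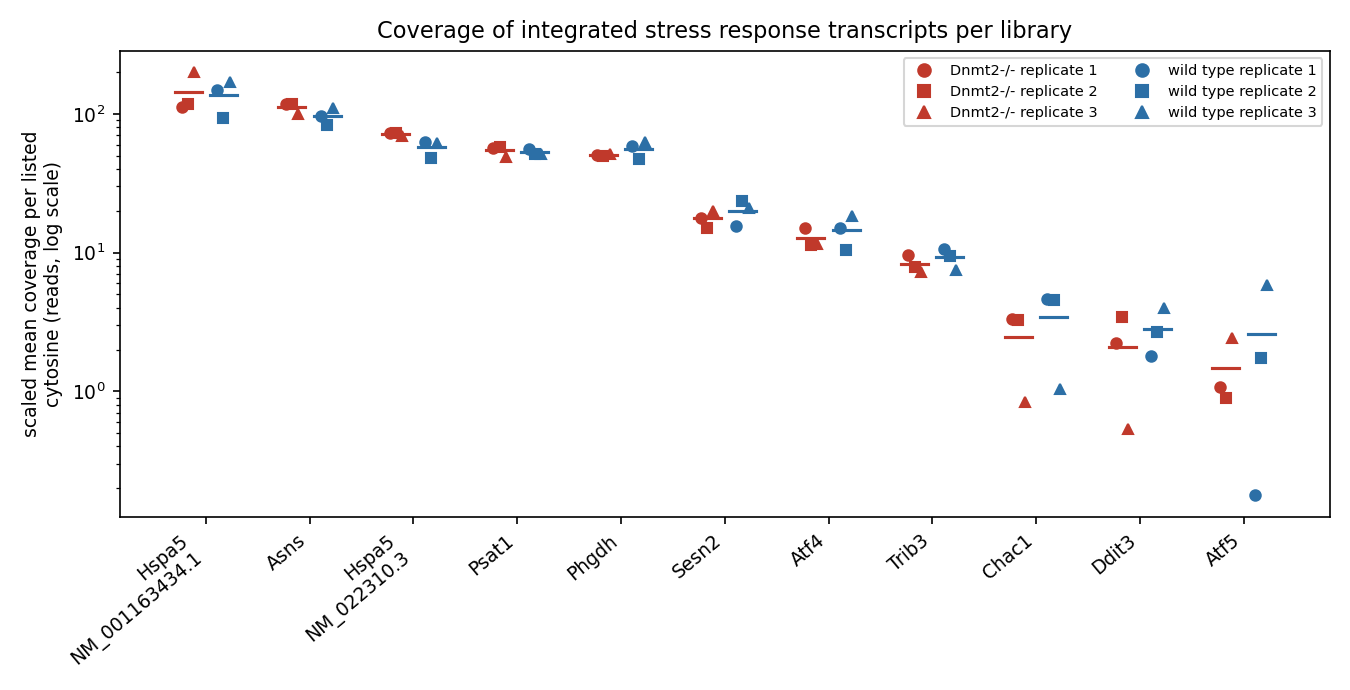
Scaled mean coverage per listed cytosine (reads, logarithmic axis) of the 11 tested references in each library, Dnmt2-/- in red left of wild type in blue, with replicates as symbols and the mean as a line. Coverage runs from 200 reads for Hspa5 NM_001163434.1 in Dnmt2-/- replicate 3 to 0.178 for Atf5 in wild type replicate 1, and the genotypes stand apart for Hspa5 NM_022310.3 alone.

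The plot of coverage by library shows 4 tiers of levels over the 6 libraries, taking the best-covered reference of each gene. Hspa5 and Asns averaged 140 and 104 reads per cytosine, and their ranges overlapped. Psat1 and Phgdh followed at 53.6 and 53.1, all of their values below every Asns value. Sesn2, Atf4 and Trib3 averaged 18.8, 13.6 and 8.72, each overlapping its neighbour and none reaching the lowest Phgdh value of 46.9. Chac1, Ddit3 and Atf5 averaged 2.94, 2.45 and 2.02 with ranges that overlapped one another and lay below every Trib3 value. The order of neighbours inside a tier does not stand beyond the spread of the libraries. These levels also depend on how much of a transcript is listed, which is given below for each gene.

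**Figure D2:**
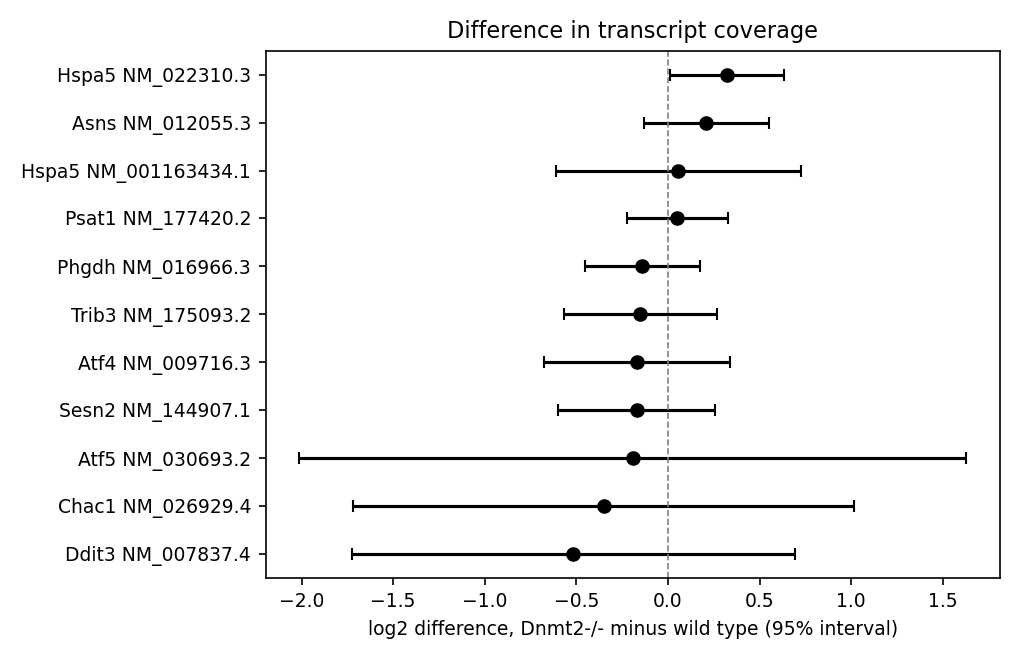
Log2 difference in scaled coverage, Dnmt2-/- minus wild type, for the 11 tested references, with 95% intervals from limma and a dashed line at 0. The interval of Hspa5 NM_022310.3, 0.01 to 0.63, is the only one that leaves out 0, and those of Atf5, Chac1 and Ddit3 are the widest of the 11.

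As the plot of log2 differences shows, the standard error was 0.119 for Psat1, 0.135 for Phgdh and Hspa5 NM_022310.3, 0.148 for Asns, 0.181 to 0.219 for Trib3, Sesn2 and Atf4, and 0.289 for Hspa5 NM_001163434.1. It was largest for the 3 least covered members, at 0.523 for Ddit3, 0.590 for Chac1 and 0.787 for Atf5. Part of the uncertainty of the least covered members lies in the listing minimum. In wild type replicate 3, where 1 read is worth most after scaling, 48 of the 381 Chac1 cytosines were listed, against 271 and 341 in the other wild type libraries and 269, 228 and 104 in the Dnmt2-/- libraries.

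With every unlisted cytosine taken as 2 reads, the most that can be hidden, Chac1 had 3.82, 4.04 and 1.98 reads in Dnmt2-/- and 5.27, 4.67 and 5.41 in wild type. The 3 Dnmt2-/- values then lay below the 3 wild type values, with a log2 difference of -0.62 and a 95% interval of -1.24 to 0.01 (adjusted p = 0.678, limma with Benjamini-Hochberg adjustment), and 11.1% of all transcripts were separated in that direction. In the same setting Ddit3 had 2.87, 4.16 and 1.77 in Dnmt2-/- and 2.98, 2.83 and 6.87 in wild type. Atf5 had 2.15, 2.18 and 3.09 in Dnmt2-/- and 2.31, 2.27 and 8.16 in wild type. This setting, chosen after the data were seen, moved the median of all transcripts to -0.15, because 2 reads count for more in the shallowest library, and relative to that shift the Chac1 difference is smaller. The sign of the difference changed for none of the 11 member references.

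**Figure D3:**
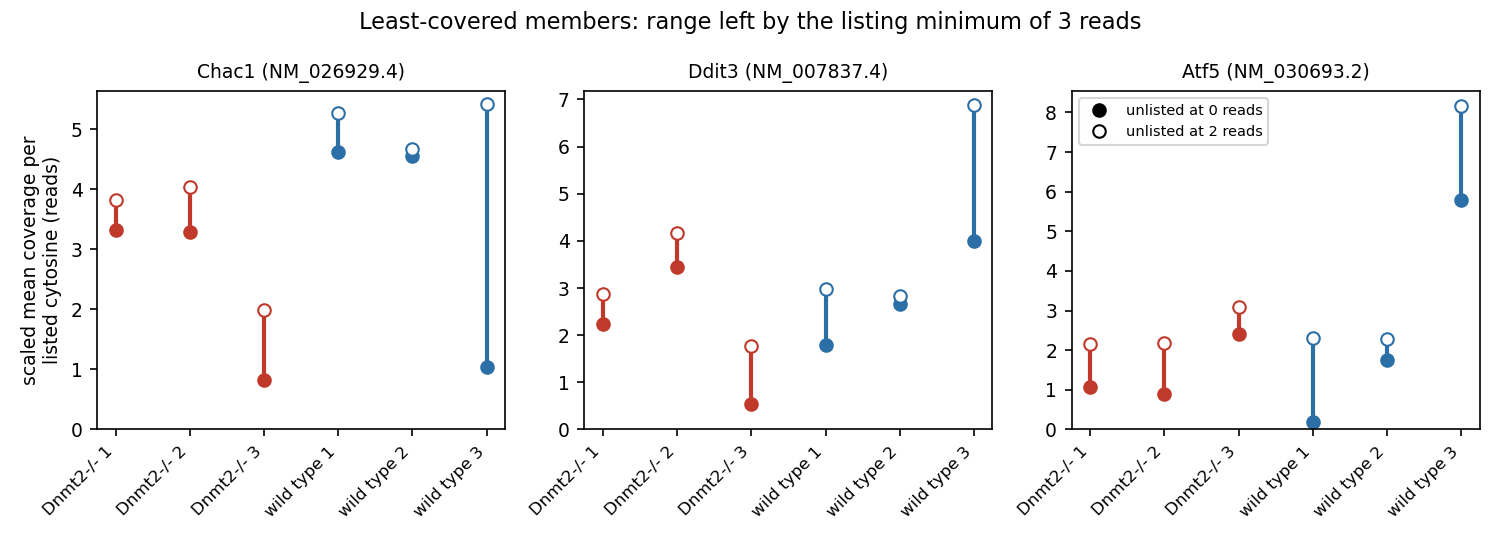
Scaled mean coverage per listed cytosine (reads) of Chac1, Ddit3 and Atf5 in each library, Dnmt2-/- in red left of wild type in blue, with unlisted cytosines taken as 0 (filled) or as 2 reads (open). The bars are ranges left by the listing minimum and not errors; for Chac1 in wild type replicate 3 the range runs from 1.04 to 5.41.

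The place of the highest coverage along the transcript recurred across libraries for some members and not for others. Phgdh had its highest 25-nt bin at positions 826 to 850 in all 6 libraries, at 260, 218 and 431 reads in Dnmt2-/- and 298, 239 and 443 in wild type. Replicate 3 had the highest peak in either genotype. Asns peaked at 151 to 175 in 5 libraries and at 76 to 100 in wild type replicate 2. Atf4 peaked at 376 to 400 in 5 libraries and at 326 to 350 in wild type replicate 3. For Sesn2 the highest bin lay between 226 and 275 in 4 libraries and at 1451 to 1475 in the other 2, and for Chac1 it lay in a different bin in each of the 6 libraries.

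**Figure D4:**
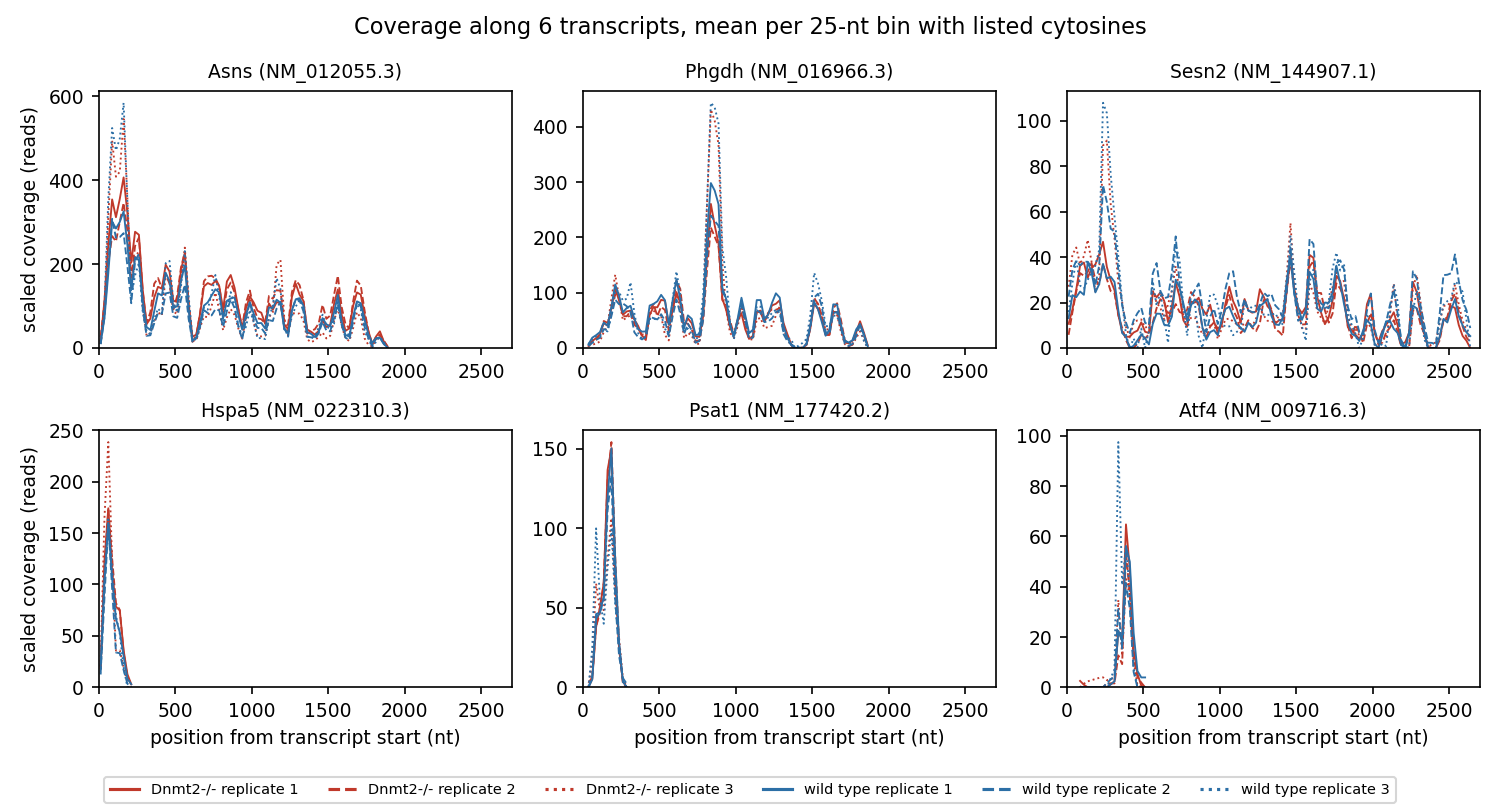
Mean scaled coverage (reads) in 25-nt bins against position from the transcript start (nt) for 6 members, Dnmt2-/- libraries in red and wild type libraries in blue, with line styles for replicates. Phgdh peaks at positions 826 to 850 in all 6 libraries, and coverage of Hspa5, Psat1 and Atf4 ends within the first 517 nt because no later cytosine is listed.

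The profiles also show how little of some members is listed. Asns, Trib3, Chac1, Sesn2 and Phgdh, each with 1 curated accession in the annotation, had cytosines listed up to positions 1482 to 2649. Atf4, Ddit3, Psat1, Hspa5 and Atf5, each with 2 curated accessions, had cytosines listed only up to positions 140 to 517. Over all references, those of genes with 1 curated accession ended at a median position of 2259 and 6.79% ended before 600, while of those with 2 or more 37.8% did. The levels of the 5 short-listed genes therefore describe a short stretch near the 5′ end, and the values of the 2 sets of genes rest on unequal lengths.

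The balance between the ends, as log2 of the mean coverage of the later over the earlier listed cytosines, split at the middle one, did not differ between genotypes for any of the 10 member references tested. Of all 10362 transcripts 0% were called, and 363 (3.50%) had an unadjusted p under 0.05, none of them a member. Hspa5 NM_001163434.1 leaned most to its 5′ end, at -2.84 ± 0.0986 in Dnmt2-/- and -3.33 ± 0.611 in wild type (SD, n = 3 each). Atf4 leaned to its later listed part, at 2.09 ± 0.790 in Dnmt2-/- and 1.33 ± 1.02 in wild type. Asns lay at -1.19 ± 0.371 in Dnmt2-/- and -1.21 ± 0.277 in wild type. All 10 references, which represent 9 genes, had an adjusted p of 0.999 in limma with Benjamini-Hochberg adjustment, and Atf5 had too few listed cytosines to be tested.

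Non-conversion of the member transcripts lay close to the background of incomplete conversion in both genotypes. The background was 1.77%, 1.76% and 1.42% in Dnmt2-/- libraries and 1.59%, 1.45% and 1.499% in wild type libraries. Asns, over 398 cytosines with 10 or more reads in every library, had 1.75%, 1.59% and 1.39% unconverted in Dnmt2-/- and 1.54%, 1.32% and 1.48% in wild type. Phgdh, over 353 such cytosines, had 2.03%, 2.06% and 1.56% in Dnmt2-/- and 1.81%, 1.52% and 1.95% in wild type. The groups overlapped for both genes, and Phgdh stood above the background of its own library in all 6. So did the median of the 4349 transcripts tested, at 1.85%, 1.85% and 1.45% in Dnmt2-/- and 1.67%, 1.47% and 1.57% in wild type. The background leaves out cytosines above 10% non-conversion, which the value of a transcript keeps, so the 2 measures are unlike.

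The widest spreads within a genotype were an SD of 0.3998 points for Psat1 in Dnmt2-/-, with 1.79%, 2.17% and 1.37%, against 1.55%, 1.65% and 1.99% in wild type, and an SD of 0.422 points for Sesn2 in wild type. Sesn2 had 1.53%, 1.83% and 1.24% in Dnmt2-/- and 1.98%, 1.34% and 1.19% in wild type. The 8 member references with 20 or more such cytosines had log2 odds differences of -0.08 for Trib3 to 0.24 for Atf4. None passed limma with Benjamini-Hochberg adjustment, and of 4349 transcripts tested 0% were called and 165 (3.79%) had an unadjusted p under 0.05, none of them a member.

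**Figure D5:**
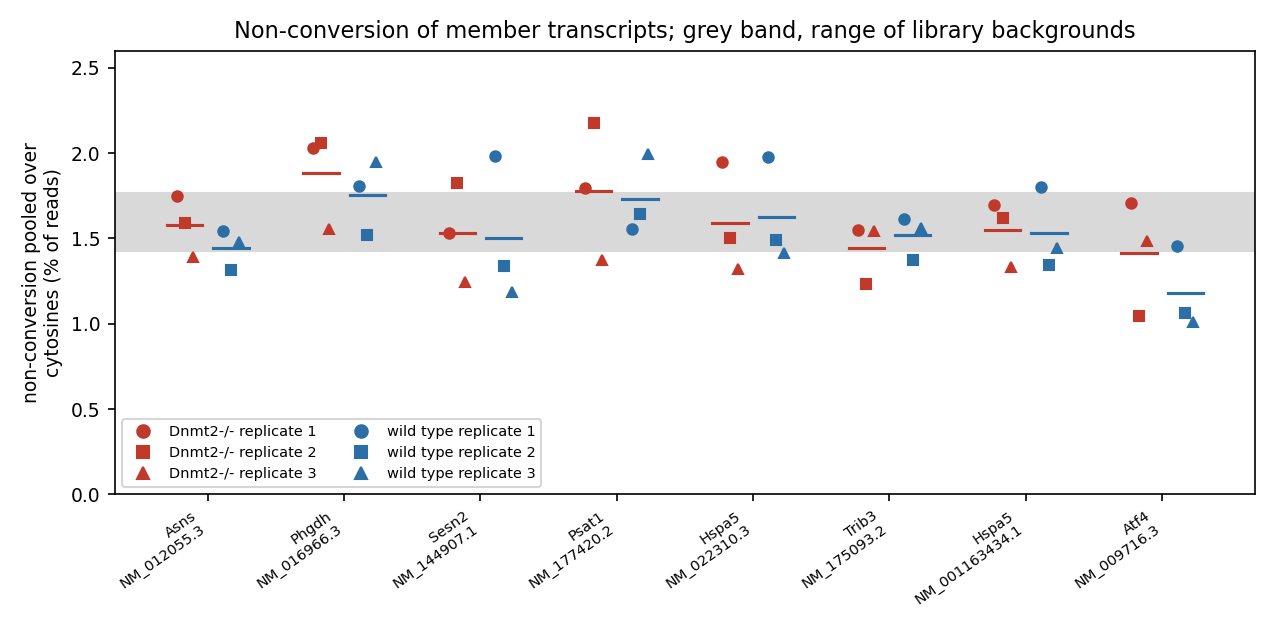
Non-conversion pooled over the cytosines of 8 member references with 10 or more reads in every library (% of reads), Dnmt2-/- in red left of wild type in blue, with replicates as symbols and means as lines. The grey band is the range of the 6 library backgrounds, 1.42% to 1.77%, and the members' values run from 1.01% to 2.17%.

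No single cytosine of the members was called methylated in either genotype. Of 3110 listed member cytosines, 1661 could be tested in Dnmt2-/- and 1212 in wild type, and 0 were called in each, against 387 (0.0283%) of all cytosines tested in Dnmt2-/- and 162 (0.0212%) in wild type. At such shares a count of 0 among the members says nothing particular about them. Between genotypes 8 member cytosines had the coverage of 10 or more and the mean non-conversion of 5% or more needed for the test. Of these, 7 lay in Phgdh and 1 in Asns. By edgeR's quasi-likelihood test 0 passed after Benjamini-Hochberg adjustment and 0 had an unadjusted p under 0.05. Of all 8193 cytosines tested 0% were called, and 202 (2.47%) had an unadjusted p under 0.05.

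The largest of the 8 differences lay at position 1298 of Phgdh, with 3.30%, 2.67% and 1.09% unconverted in Dnmt2-/- and 2.94%, 6.06% and 19.2% in wild type. The wild type mean of 9.41% ± 8.65, against 2.35% ± 1.14 in Dnmt2-/- (SD, n = 3 each), rested on replicate 3, which covered the site with 26 reads, against 68 and 99 in the other wild type libraries and 91, 75 and 92 in Dnmt2-/-. The edgeR quasi-likelihood p was 0.0591 before and 0.999 after Benjamini-Hochberg adjustment. The Asns cytosine at position 1737 had 3.23%, 1.05% and 7.14% in Dnmt2-/- and 0%, 0% and 20.0% in wild type, where replicate 3 covered it with 15 reads. Of the 10 member cytosines with the highest mean non-conversion 8 lay in Phgdh, 1 in Asns and 1 in Sesn2, and the lowest coverage among their libraries was 10 to 26 reads.

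The neighbours of the members in the pathway gave a like picture. Of the eIF2 kinases, eIF2 subunits and their regulators, 17 references of 16 genes were tested, 0 passed, and 10 differences were positive and 7 negative, with a median log2 difference of 0.03. The highest were Eif2b3 at 0.34, Eif2b4 NM_001127356.1 at 0.31 and Eif2b1 at 0.29, subunits of the exchange factor that recharges eIF2. That Eif2b4 reference was unlisted in wild type replicate 1, and the better covered Eif2b4 NM_010122.2 stood at -0.06. The other subunits, Eif2b2 and Eif2b5, stood at 0.004 and 0.03. The lowest were Eif2ak4 at -0.36, which encodes the amino acid sensing kinase GCN2, Eif2s1 at -0.08, the subunit that is phosphorylated, and Eif2ak2 at -0.08, the kinase PKR. Eif2ak4 had 5.85, 5.03 and 6.59 reads in Dnmt2-/- and 7.95, 5.81 and 9.46 in wild type, with overlapping groups.

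Of the genes of amino acid supply, 21 references of 15 genes were tested, 0 passed, 8 differences were positive and 13 negative, with a median of -0.08. Among the ends of this list were the glutamine transporter Slc38a1 NM_001166456.1 at 1.39, the cationic amino acid transporter Slc7a3 at 0.97 and 0.41 for its references, the transporter heavy chain Slc3a2 NM_001161413.1 at -0.48 and the proline synthesis enzyme Aldh18a1 NM_019698.2 at -0.43. Slc3a2 had 7.82, 6.40 and 4.90 in Dnmt2-/- and 7.94, 8.88 and 10.2 in wild type for that reference, all Dnmt2-/- values being lower (adjusted p = 0.653, limma with Benjamini-Hochberg adjustment). The better covered Slc3a2 NM_008577.4 had 68.4, 62.5 and 48.5 in Dnmt2-/- and 71.5, 62.6 and 80.1 in wild type. Its groups overlapped, at a log2 difference of -0.26. The cystine transporter Slc7a11, at -1.33, was listed in wild type replicate 3 only, at the listing minimum of 3 reads. This value therefore rests on 1 library, the shallowest, and on no level above that minimum. Slc38a1 NM_001166456.1 had 1.55, 1.92 and 1.57 reads in Dnmt2-/- and 0.0900, 1.41 and 0 in wild type, while the other Slc38a1 references stood at 0.10 and -0.11. Slc7a5, a leucine transporter on chromosome 8, was kept out of the counts because transcripts of that chromosome were lower in Dnmt2-/- as a whole, with a median log2 difference of -0.51. It stood at -0.90 (unadjusted p = 0.00025, adjusted p = 0.328, limma with Benjamini-Hochberg adjustment).

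Of the genes of folding and degradation in the endoplasmic reticulum, 17 references of 16 genes were tested, 0 passed, 9 differences were positive and 8 negative, with a median of 0.03 and no reference with separated groups. The degradation factors Sel1l NM_011344.2 at 1.60 and Syvn1 at 0.49 and the sensor Atf6 at 0.25 stood highest, and the stress transcription factor Xbp1 at -0.47, Edem1 at -0.21 and the chaperone Hyou1 at -0.06 lowest. Sel1l NM_011344.2 had 2.78, 1.32 and 1.69 reads in Dnmt2-/- and 0, 1.38 and 0 in wild type, while the better covered Sel1l NM_001039089.1 stood at 0.10. Hsp90b1, which encodes the chaperone GRP94 and is commonly induced together with Hspa5, had 100.4, 128 and 93.7 reads in Dnmt2-/- and 122, 96.2 and 114 in wild type, a log2 difference of -0.05.

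Of other stress-induced transcripts, 16 references of 13 genes were tested, 0 passed, 9 differences were positive and 7 negative, with a median of 0.05. The thioredoxin-binding protein gene Txnip stood highest, at 0.99 and 0.94 for its references, followed by the growth arrest gene Gadd45a at 0.43. Gadd45a had 17.7, 19.6 and 18.4 reads in Dnmt2-/- and 13.5, 14.8 and 12.7 in wild type, with separated groups (unadjusted p = 0.00799, adjusted p = 0.394, limma with Benjamini-Hochberg adjustment). The heat shock gene Hspa1b at -0.59, Nupr1 at -0.29 and Mdm2 NM_001288586.1 at -0.26 stood lowest. Hspa1b had 3.43, 2.51 and 4.02 reads in Dnmt2-/- and 5.398, 4.74 and 5.45 in wild type, with separated groups in the other direction (unadjusted p = 0.0222, adjusted p = 0.537, limma with Benjamini-Hochberg adjustment). Hspa1b and its close copy Hspa1a can share reads, and the value of each is uncertain. Outside these counts, 3 genes of the list on chromosome 8 were also lower in Dnmt2-/- without passing, the haem oxygenase gene Hmox1 at -0.87, the growth factor gene Gdf15 at -0.76 and the quinone reductase gene Nqo1 at -0.44, beside the median of -0.51 for their chromosome. Across the 4 lists, separated groups made up 0% to 19.0% of the references, against 12.1% of all transcripts.

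Markers of the stem cells and of the feeder fibroblasts were measured beside the members. The 10 stem cell references tested summed to 2363, 2320 and 1682 reads per cytosine in Dnmt2-/- and 1733, 1413 and 1396 in wild type, with 8 positive and 2 negative log2 differences. Dppa5a made up most of these sums. The other 9 references, of which Tdgf1 was the largest, summed to 569, 574 and 403 in Dnmt2-/- and 489, 462 and 405 in wild type, with overlapping groups. Taken singly, 3 of the 10, Nanog, Dppa5a and Fgf4, were higher in every Dnmt2-/- library. These 30% with separated groups compare with 12.1% of all transcripts, and 0 passed. The less covered Dppa4 reference had a wild type mean under 1 and was tested only through Dnmt2-/-, so its positive sign lends no weight. The 9 feeder references summed to 41.5, 37.8 and 21.7 in Dnmt2-/- and 35.2, 38.9 and 67.9 in wild type. All 9 differences were negative, with a median of -0.52, against 4920 negative among the 10949 transcripts tested. Dcn, Col3a1 and Col6a1 had Dnmt2-/- means under 1 and were tested only through wild type, so their sign lends no weight to that count. Separated groups, 2 of the 9 and both lower in Dnmt2-/-, made up 22.2%, against 12.1% of all transcripts, and 0 passed. Acta2 was the largest part of the feeder sum in every library, at 24.3, 23.4 and 7.08 in Dnmt2-/- and 19.6, 16.8 and 23.4 in wild type. Dcn was listed in wild type replicate 3 alone, at the listing minimum of 3 reads, and 9 of the 12 feeder genes had a reference. Wild type replicate 3, the shallowest library, had the highest feeder sum and also the highest coverage of Atf4, Ddit3, Atf5 and Phgdh among the 6. It was not the highest for the other members. For Chac1 and Trib3, at 1.04 and 7.46 reads there, only Dnmt2-/- replicate 3 was lower. The part of feeder RNA in the values of the members was not tested.

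The summed coverage of the 11 member references was 460, 456 and 511 in Dnmt2-/- and 470, 374 and 512 in wild type, most of it from Hspa5 and Asns. When each gene was weighted alike, as the mean of its standardised log2 level, the members stood at 0.19, -0.09 and -0.45 in Dnmt2-/- and 0.14, -0.26 and 0.48 in wild type, so that replicate 3 was the lowest library of one genotype and the highest of the other. Of 3730 well-covered transcripts, the profiles most like this mean over the 6 libraries were those of Rab11a, Ttc4, Atp5b, Lamc1 and Snx18, with Pearson correlations of 0.997, 0.993, 0.986, 0.984 and 0.972. With 6 libraries and that many candidates, such likeness is a description of these libraries only.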

How the data were processed

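Per the file headers, each deposited file of the rRNA-depleted long fraction gives, per cytosine of a RefSeq mRNA, an unnormalized read count, called coverage, and an unconversion ratio, the fraction of those reads still carrying cytosine. Mapping by the authors involved BSMAP and mm9, per the submitters' processing notes; of versions and filters these sources say nothing. Coverage times ratio was whole within 0.01 at every entry, which gave the counts of both states. The libraries had medians of 6 to 11 reads per listed cytosine, and counting error covers reads, not molecules. Other fractions were not used.

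The members and gene lists were chosen with earlier results of these data known. Of 15330 references, 15239 were matched to a symbol through a RefSeq table of GRCm38.p6, used for names only; genes on chromosome 8, where the median log2 difference was -0.51 over 611 references, were left out of the lists. Mean coverage over cytosines listed in any library was scaled by TMM factors (edgeR 4.0.16, R 4.3.3), kept where it averaged at least 1, and compared as Dnmt2-/- minus wild type with limma 3.58.1, trend on, after adding 0.5 and taking log2, which shrinks differences of poorly covered transcripts. Balance and the log2 odds of non-conversion (20 or more cytosines at coverage of 10 or more in every library) were tested likewise. Single cytosines (coverage of 10 or more, mean non-conversion of 5% or more) were tested with edgeR's quasi-likelihood test with a term per library. Methylated cytosines were called within a genotype with 1-sided binomial tests per library against its background, joined by Fisher's method, requiring at least 10% non-conversion and 10 reads in each of its libraries; the background pooled cytosines of 10 reads or more with at most 10% non-conversion. P-values were adjusted by Benjamini-Hochberg over all features, with a threshold of 0.05. All members were named, for each further list the 3 highest and 3 lowest references, and the 5 most alike transcripts of a mean coverage of 10 or more. The fits were checked on simulated data. Of 100 simulated log2 changes of 1, coverage recovered 74 (among better covered transcripts), non-conversion of transcripts 64 and balance 32. The cytosine test recovered 7 of 100 changes of -2 in log2 odds and 27 of 100 changes of -4. A count of 0 in any of these tests, coverage included, therefore leaves room for missed changes. The simulated coverage had the same relative spread for all transcripts, which real libraries need not have. In the real fit Trdmt1, at a log2 difference of -1.56, and Slc7a5, at -0.90, did not pass. Alternatives changed scaling, pseudocount, filters, listed cytosines, thresholds, the replicate block and the libraries included; scaling outside chromosome 8 and unlisted cytosines at 2 reads were added after the data were seen.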

Additional observations from a re-analysis of the deposited data

How the results depend on the processing

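The calls on the members were the same under every alternative: 0 member references or cytosines passed in coverage, balance, non-conversion or methylation calls. Over all transcripts the coverage test called 1 transcript on cytosines listed in all 6 libraries and 90, 74 of them lower, with unlisted cytosines at 2 reads. Deviations from the genotype means correlated at 0.14, 0.04 and 0.30 between libraries of the same replicate number. Between Dnmt2-/- and wild type libraries of unlike number they correlated at -0.29 to 0.22. The replicate 3 libraries gave the highest value, while numbers 1 and 2 did not exceed the range of the unlike pairs. With the replicate numbers as a block 0 transcripts passed in coverage, 19 in non-conversion, 0 in balance and 0 cytosines, none of them members. Methylated cytosine calls over all transcripts came to 129 in Dnmt2-/- and 48 in wild type at non-conversion of 20% or more, and to 217 and 77 at coverage of 20 or more.

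Ddit3 and Atf5 had no cytosine listed in all 6 libraries and gave no value there. Signs of uncalled differences changed, and the cause was not tested. Among them was Ddit3, whose coverage difference of -0.52 was the largest in size of the members. Without both replicate 3 libraries the coverage differences were -0.047 for Hspa5 NM_001163434.1, 0.28 for Ddit3, 0.052 for Atf4 and 0.29 for Atf5, and the Phgdh cytosines at 364, 1484 and 1628 differed by 3.65, 1.84 and 1.01 points. With cytosines at coverage of 5 or more the log2 odds differences were -0.020 for Hspa5 NM_001163434.1, -0.0073 for Atf4 and 0.048 for Trib3. With shorter end stretches the balance differences were -0.51 for Atf4 and -0.054 for Asns.

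Leaving out 1 library at a time gave these ranges. Coverage called 0 to 1 transcripts, non-conversion 0 to 11 and the cytosine test 0 to 1, and methylated calls came to 510 to 578 in Dnmt2-/- and 216 to 357 in wild type, where fewer libraries have to pass. Coverage differences ran from -0.39 to 0.00046 for Atf4, -1.02 to 0.64 for Atf5, -0.96 to 0.14 for Chac1, -0.92 to 0.029 for Ddit3 and -0.22 to 0.22 for Hspa5 NM_001163434.1. Balance ran from -0.16 to 0.21 for Asns, 0.26 to 1.28 for Atf4, -0.084 to 0.51 for Hspa5 NM_022310.3, -0.15 to 0.073 for Phgdh, -0.11 to 0.49 for Psat1, -0.16 to 0.062 for Sesn2 and -0.20 to 0.13 for Trib3. Log2 odds of non-conversion ran from -0.0065 to 0.39 for Atf4, -0.070 to 0.14 for Hspa5 NM_001163434.1, -0.20 to 0.10 for Hspa5 NM_022310.3, -0.0069 to 0.22 for Phgdh, -0.14 to 0.20 for Psat1, -0.090 to 0.27 for Sesn2 and -0.16 to 0.018 for Trib3. Phgdh cytosines ran from -0.264 to 3.13 points at 1079, -3.17 to 1.16 at 1484, -3.25 to 1.01 at 1600, -0.750 to 1.02 at 1628 and -5.50 to 2.83 at 364. Coverage of 3 reads or more limits what can be seen of Chac1, Ddit3 and Atf5, and coverage of 10 or more leaves their cytosines outside every test of non-conversion.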
